A study of Dunaliella salina with 12 samples.

Results

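The genes described here differed from control medium in Dunaliella salina cells given sorbitol and lay near the control level in cells given extra NaCl. They number 98 of 82333 assembled genes, 55 raised and 43 lowered. D. salina is a single-celled green alga of salt lakes, and whole cells of strain 435, labelled as 5 days old, were used. Cells grown at 25 °C under a day of 16 h light and 8 h dark were spun down and placed for 2 h in fresh medium, which held 1.5 M NaCl in every group. The sorbitol group also received 1.5 M sorbitol, the NaCl group a further 1.5 M NaCl, the H2O2 group 0.4 mM H2O2, and the control group fresh medium alone. Each of the 4 groups had 3 libraries. Separate cultures are not stated for the replicates, so the spread between libraries may be technical.

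The cell of Dunaliella has no rigid wall and adjusts its volume with glycerol, which it makes from photosynthetic carbon and from stored starch. Sorbitol and NaCl in the medium both draw water out of the cell. NaCl also brings sodium and chloride, whereas sorbitol is an uncharged sugar alcohol. At equal molarity dissolved NaCl gives more particles, so the added NaCl was the stronger osmotic step of the pair. H2O2 is a reactive oxygen species and brings little osmotic load. The pair thus differs both in ions and in the size of the osmotic step.

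All 4 groups entered the choice of members. Values were compared as log2(FPKM + 1), and S, N and H denote the group mean on that scale minus the control mean for sorbitol, NaCl and H2O2. FPKM is a level scaled by transcript length and by library total. Members had a control mean of at least 5 and below 1000 FPKM, an S of at least 0.5 in size, an N of at most 0.3 in size and an H below 0.4 in size. All 3 sorbitol libraries also had to lie above, or all below, the 3 NaCl and 3 control libraries. Differences that this choice fixes are given as description, without a test. The files give assembly IDs without names, and 0 IDs were found in a reference list of 16683 D. salina genes. The functions of the members are therefore not given here, and IDs are printed for 2 raised and 2 lowered genes.

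Few of the genes that differed with sorbitol were left at the control level by NaCl. Of 14244 genes in the range of control levels, 1351 had an S of 0.5 or more, and 1215 of these had an N above 0.3 as well. N lay within 0.3 of 0 in 119 of them, or 8.81%. The limit on H left 99, and the demand that libraries did not overlap left the 55 members. On the lowered side 1489 genes had an S of -0.5 or below, of which 1350 had an N below -0.3 and 104, or 6.99%, an N within 0.3 of 0. The limit on H left 61 and the last demand 43. Over all 14244 genes in the range the quartiles of N were -0.46 and 0.45, so many of those genes also had an N beyond 0.3. The share of them with an N within 0.3 of 0 was not counted. S and N share the control libraries, so they are not independent. The split depended on how libraries were scaled, with 89 raised and 30 lowered genes at equal library sums and 46 raised and 62 lowered under median-ratio scaling. It also changed when single libraries were left out. Without sorbitol replicates 1, 2 and 3 in turn there were 63, 113 and 92 raised genes and 62, 46 and 63 lowered ones. Fewer sorbitol libraries then had to lie clear of the others, a looser demand that by itself lets more genes in. Among all 27038 genes tested, 3.04% had all 3 sorbitol libraries above all NaCl and control libraries and 2.67% had them all below. The same thresholds with NaCl as the moving group and sorbitol as the still one gave 1952 genes, 823 raised and 1129 lowered. With H2O2 as the moving group and NaCl still, they gave 35, of which 26 were raised and 9 lowered.

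**Figure D1:**
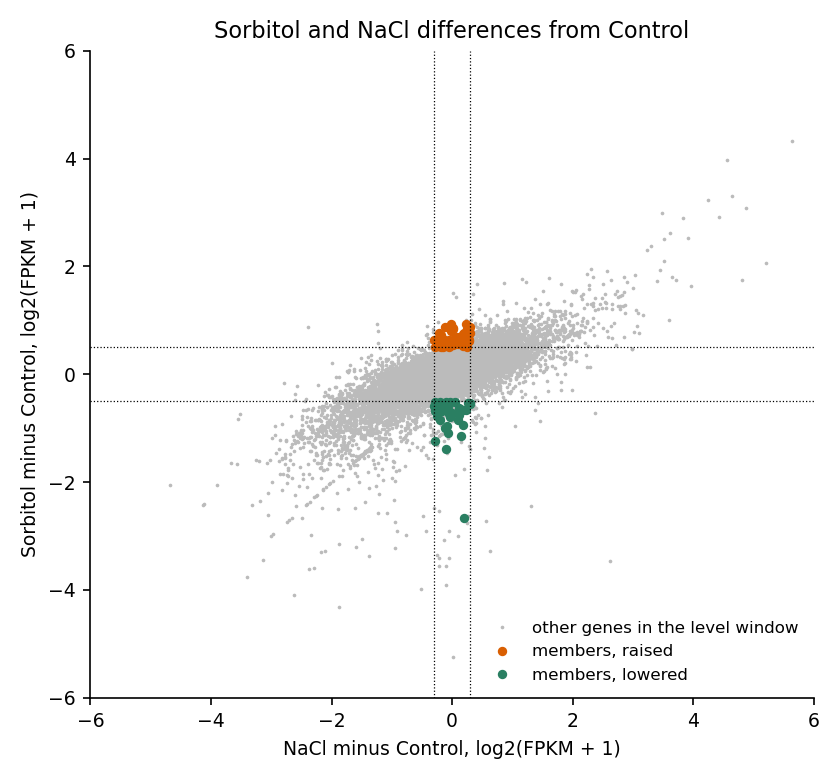
Mean difference from control in sorbitol (vertical axis) and in NaCl (horizontal axis), on the log2(FPKM + 1) scale, for the 14244 genes in the range of control levels. Each point is a gene, dotted lines mark 0.5 for sorbitol and 0.3 for NaCl, and the 55 raised and 43 lowered members stand in the narrow band around an NaCl difference of 0. The axes share the 3 control libraries, and unmarked points inside the band beyond the lines for sorbitol failed the limit on H2O2 or had overlapping libraries.

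The raised genes made small steps. Their S ran from 0.50 to 0.94 with a median of 0.64, and none (0 of 55) reached 1. In FPKM the sorbitol mean was 1.44 to 2.01 times the control mean, with a median of 1.61. Over the 14244 genes in the same range of levels, the median S was 0.07 and the median ratio 1.05. Most raised genes were of low abundance. Their median control mean was 10.8 FPKM, against 16.0 FPKM over all genes in the range, and 81.8% of them lay under 20 FPKM, against 59.2%.

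The raised gene with the largest S was c71527_g1. It had 16.6, 19.6 and 20.6 FPKM with sorbitol, 6.86, 13.3 and 8.70 with NaCl, 13.1, 10.9 and 11.7 with H2O2, and 8.00, 9.90 and 10.4 in control. The sorbitol libraries stood apart from the other 9, while NaCl replicate 2 and H2O2 replicate 1 were the nearest to them. Its S was 0.94 and its N -0.01. Next came c30640_g20, with 16.7, 14.3 and 12.7 FPKM in sorbitol, 6.45, 12.1 and 7.76 in NaCl, 9.67, 8.20 and 10.3 in H2O2, and 5.43, 7.84 and 8.44 in control. Here NaCl replicate 2 came within 1 FPKM of the lowest sorbitol library, and S was 0.93 with an N of 0.22. This gene belongs to an assembly component, a set of sequences joined by overlap, that holds 22 genes of the table, so reads could be divided among near-identical copies.

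Among the raised genes of ranks 3 to 10 by S, abundance and spread varied widely. The gene of rank 3 was the second most abundant raised gene, at 309, 292 and 286 FPKM with sorbitol, 182, 202 and 207 with NaCl, 171, 152 and 192 with H2O2, and 163, 152 and 166 in control. Its sorbitol libraries were far above the rest, but its N of 0.30 sat at the limit, and all 3 NaCl libraries were above all 3 control libraries. The gene of rank 4 had 32.0, 35.7 and 31.0 FPKM with sorbitol, against 12.3, 21.1 and 15.9 with NaCl, 20.03, 22.2 and 25.6 with H2O2, and 15.3, 17.0 and 20.5 in control. Rank 5 stood at 59.7, 66.5 and 49.5 FPKM in sorbitol, 25.8, 39.6 and 28.5 in NaCl, 31.4, 32.6 and 40.5 in H2O2, and 31.2, 28.9 and 35.0 in control. In these genes of ranks 4 and 5 the NaCl libraries lay on both sides of the control libraries, and NaCl replicate 2 was the highest of its group. The gene of rank 6 showed the same spread, with NaCl values of 12.5, 25.0 and 19.99 FPKM beside sorbitol values of 34.7, 40.3 and 27.4, H2O2 values of 17.3, 20.9 and 20.4, and control values of 15.4, 17.2 and 22.7. Rank 9 was steadier, at 19.6, 15.5 and 19.9 FPKM with sorbitol, 8.76, 11.7 and 9.44 with NaCl, 10.6, 10.8 and 10.8 with H2O2, and 9.82, 9.77 and 10.6 in control. Ranks 7, 8 and 10 had an S of 0.83, 0.83 and 0.76 and an N of 0.24, 0.02 and 0.19.

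The most abundant raised gene ranked 31 by S. It had 1599, 1524 and 1489 FPKM with sorbitol, 1118, 1165 and 1341 with NaCl, 966, 1434 and 1154 with H2O2, and 925, 953 and 1101 in control. All 3 NaCl libraries were again above all 3 control libraries, with an N of 0.28 inside the limit, and H2O2 replicate 2 was near the sorbitol level. The third most abundant, of rank 30, went the other way in NaCl, at 157, 187 and 160 FPKM with sorbitol, 80.2, 106 and 79.2 with NaCl, 129, 129 and 146 with H2O2, and 112, 99.1 and 113 in control. Its NaCl libraries lay mostly below control (N = -0.29) and its H2O2 libraries above it (H = 0.32). Members near the limit on N thus include genes, such as those of ranks 3 and 31, whose NaCl and control libraries did not overlap.

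**Figure D2:**
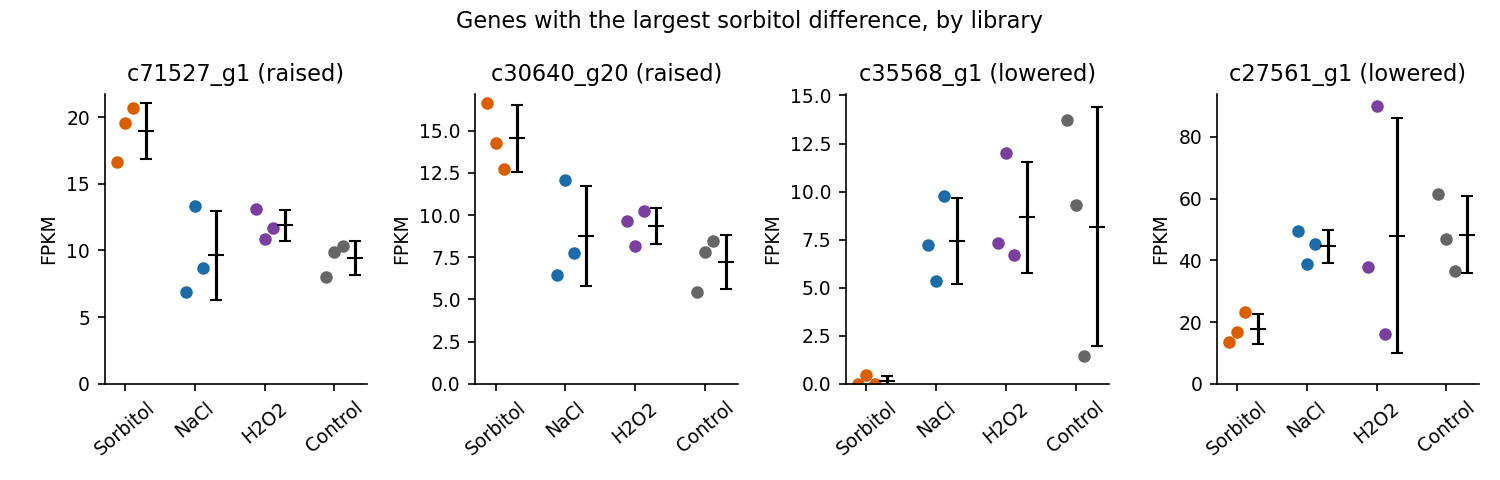
FPKM in each library for the 2 raised and 2 lowered genes with the largest sorbitol difference. Dots are libraries in the order of their replicate numbers, and the bar beside them gives the mean and SD of the 3 libraries; the widest SD belongs to H2O2 in c27561_g1, at 38.0 FPKM.

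Lowered genes reached further than raised ones and were more abundant than those. Their S ran from -0.51 to -2.67 with a median of -0.66, and 5 of 43 were at -1 or below. The median ratio of the sorbitol mean to the control mean was 0.61. Their median control level was 18.9 FPKM, against 16.0 FPKM over all genes in the range. Of the lowered genes 55.8% lay under 20 FPKM, near the 59.2% of all genes in the range.

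The gene with the lowest S was c35568_g1, listed at 0, 0.46 and 0 FPKM with sorbitol, 7.20, 5.33 and 9.75 with NaCl, 7.32, 12.0 and 6.69 with H2O2, and 13.7, 9.31 and 1.47 in control. It was at or near 0 in each sorbitol library, but control replicate 3 was also low. The value of S for this gene depends on the pseudocount and moved from -2.67 to -5.05 when 0.1 was added in place of 1. It was the only lowered gene listed at 0 in any library. The next, c27561_g1, had 13.5, 16.8 and 23.2 FPKM with sorbitol, 49.4, 38.8 and 45.5 with NaCl, 37.8, 90.1 and 16.1 with H2O2, and 61.5, 47.0 and 36.6 in control. Its S was -1.39 and its mean H -0.30, but that mean joins H2O2 replicate 2, the highest of all 12 libraries, with replicate 3, which lay inside the sorbitol range.

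Spread within groups varied among the lowered genes of ranks 3 to 10, with an SD of log2(FPKM + 1) among sorbitol libraries of 0.08 at rank 3 and 0.65 at rank 4. The gene of rank 3 had 16.5, 15.4 and 17.3 FPKM with sorbitol, 33.6, 31.9 and 33.3 with NaCl, 34.3, 34.3 and 26.0 with H2O2, and 44.1, 45.0 and 32.4 in control. Sorbitol stood below every other library, and N was -0.28. Rank 6 was at 7.65, 8.92 and 8.97 FPKM with sorbitol, 16.0, 17.0 and 16.5 with NaCl, 15.1, 22.0 and 11.5 with H2O2, and 18.1, 18.9 and 16.9 in control. This gene's sorbitol values did not overlap with any other group, and NaCl lay just under control (N = -0.11). For rank 8 the values were 6.41, 8.90 and 11.1 FPKM with sorbitol, 19.1, 19.0 and 21.7 with NaCl, 14.9, 32.8 and 10.8 with H2O2, and 20.02, 15.3 and 17.1 in control. Again H2O2 replicate 3 reached the sorbitol range and replicate 2 was the highest library. Ranks 4, 5 and 7 were low genes with sorbitol means of 1.88, 2.69 and 3.09 FPKM against control means of 5.01, 6.67 and 6.81 FPKM, and ranks 9 and 10 had an S of -0.85 and -0.84.

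The 2 most abundant lowered genes ranked 43 and 42 of 43 by S. The top gene by control level was at 445, 401 and 419 FPKM with sorbitol, 578, 547 and 545 with NaCl, 571, 610 and 621 with H2O2, and 597, 614 and 586 in control. Its groups were tight, with 422 ± 22.4 FPKM in sorbitol, 557 ± 18.6 in NaCl, 601 ± 26.3 in H2O2 and 599 ± 14.4 in control (SD, n = 3 each), and all 3 NaCl libraries lay below all 3 control libraries. It was also the lowered member nearest to the limit on S, with an S of -0.51. The second most abundant had 409, 421 and 362 FPKM with sorbitol, 577, 553 and 520 with NaCl, 524, 408 and 573 with H2O2, and 575, 551 and 565 in control. In this gene H2O2 replicate 2 lay within the sorbitol range. The third most abundant, of rank 33 by S, had 170, 182 and 188 FPKM with sorbitol, 245, 193 and 246 with NaCl, 315, 316 and 260 with H2O2, and 264, 278 and 253 in control, so that its lowest NaCl library was close to the sorbitol range.

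Values at the limits passed smoothly into those of genes left out. The raised member nearest to the limit on S had an S of 0.50 and means of 26.8 ± 2.52 FPKM with sorbitol and 18.6 ± 0.90 in control (SD, n = 3 each). The gene just outside also rounded to 0.50, with 17.8 ± 3.52 and 12.2 ± 1.40 FPKM. On the lowered side the gene just outside had an S of -0.49, with 11.9 ± 0.54 FPKM in sorbitol and 17.1 ± 0.37 in control. At the limit on N, the genes just outside had an N of 0.30 and 0.31.

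**Figure D3:**
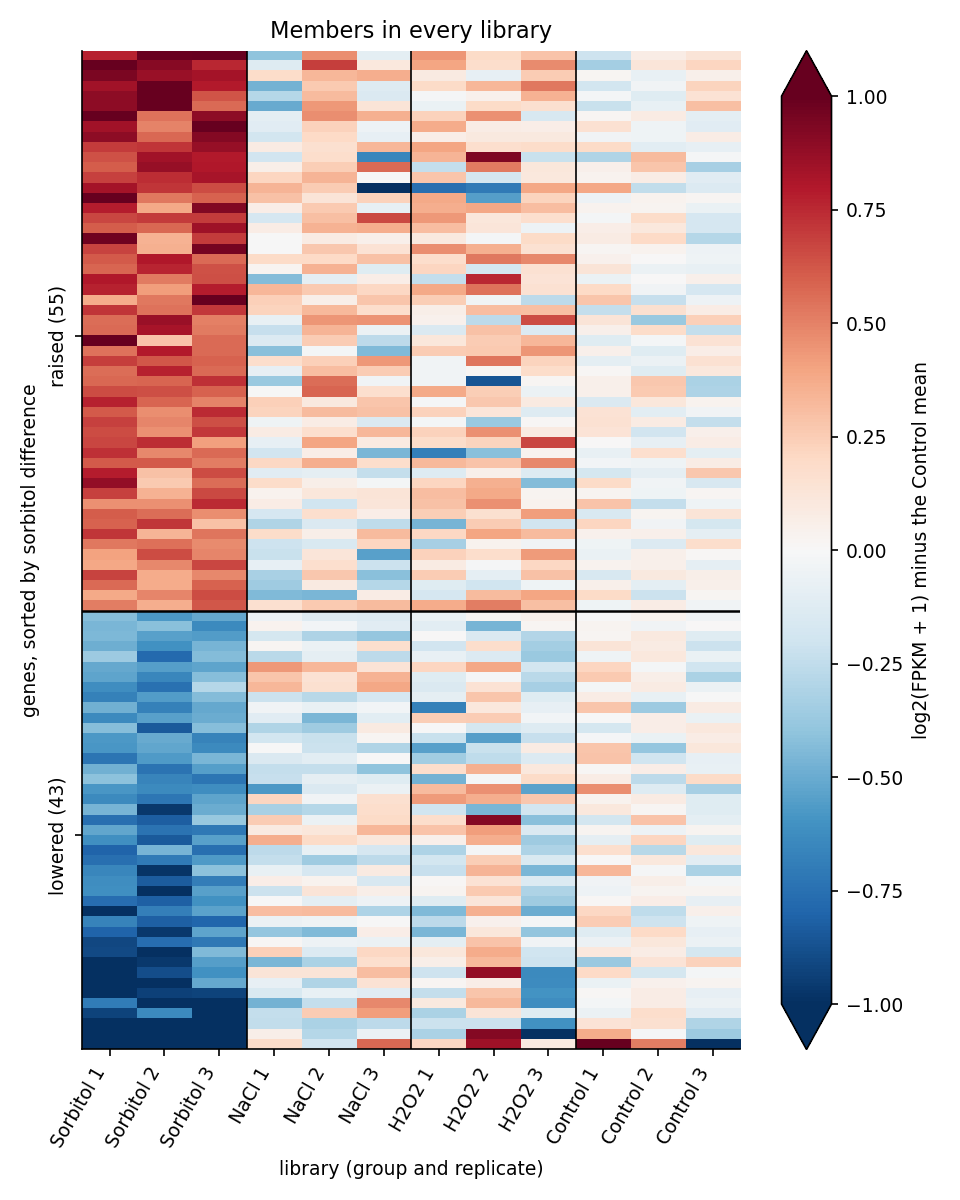
Every member (rows, 55 raised above the line and 43 lowered below it) in every library (columns), as log2(FPKM + 1) minus the control mean, with color cut at 1 in either direction. The sorbitol columns are red or blue throughout because the rule chose them so; the uneven color within the NaCl and H2O2 columns shows the spread that group means hide.

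In a model fitted to all 27038 genes with limma, 43 of the 55 raised genes were called higher with sorbitol than in control at an adjusted p of 0.05, where 6.7% of all genes were. Of the 43 lowered genes 33 were called lower, beside 6.47% of all genes. Between sorbitol and NaCl, 39 raised genes were called higher (11.9% of all genes) and 28 lowered genes lower (8.8% of all genes). The rule used these contrasts, so the counts describe how many chosen genes also stood out against the pooled spread, and 12 raised and 10 lowered members did not do so against control. Among these was c27561_g1, with a log2 fold change of -1.39 ± 0.45 (SE), whereas c71527_g1 had 0.94 ± 0.19, c30640_g20 0.93 ± 0.21 and c35568_g1 -2.67 ± 0.52. All 98 members had passed the filter of 1 FPKM in 3 libraries.

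An N near 0 did not show that NaCl left every member at its control level. The median standard error of N was 0.16 for raised and 0.15 for lowered genes. The 95% interval of N reached 0.5 or more in 17 of the 55 raised genes and -0.5 or less in 16 of the 43 lowered ones. For c71527_g1 the interval ran from -0.43 to 0.41 and for c30640_g20 from -0.24 to 0.69. For c35568_g1 it ran from -0.94 to 1.32 and for c27561_g1 from -1.07 to 0.88, wider than the limits of the rule on each side. In 1 raised gene, that of rank 3, limma called NaCl higher than control (18.4% of all genes), and 1 lowered gene, singled out after its values were seen, was called lower (17.4% of all genes). The lowered gene had a log2 fold change of -0.29 ± 0.10 (SE) with NaCl and -0.59 ± 0.10 with sorbitol, and its direct difference between sorbitol and NaCl was -0.30 ± 0.10. For the raised gene of rank 3 that direct difference was 0.58 ± 0.09.

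The NaCl libraries differed among themselves over the raised genes. The median difference from the control mean was -0.07 in NaCl replicate 1, 0.25 in replicate 2 and 0.09 in replicate 3. Replicate 2 was the highest of the NaCl libraries in 33 of 55 raised genes, or 60%, and in 44.5% of all genes in the range of levels. Replicate 1 was the lowest in 32 of 55, or 58.2%, and in 48.8% of all genes in the range. The same libraries had medians of -0.07, -0.10 and -0.01 over the lowered genes. There replicate 2 was the lowest NaCl library in 20 of 43 genes, or 46.5%, and in 23.3% of all genes in the range. It was the highest in 7 of 43, or 16.3%, so that in both directions it leaned to the sorbitol side. Over all genes in the range the medians of replicates 1, 2 and 3 were -0.05, 0.10 and 0.07. Whether a deviation of single NaCl libraries has a part in which genes were chosen was not tested.

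H2O2 showed a similar unevenness among the lowered genes. The rule set no limit on single H2O2 libraries, but each entered the choice through the limit on their mean. Whether that limit has a part in the unevenness was not tested. The median difference of the lowered genes from the control mean was -0.11 in H2O2 replicate 1, 0.17 in replicate 2 and -0.20 in replicate 3. Over all genes in the range the medians were 0.06, 0.12 and 0.07. Replicate 2 was the highest H2O2 library in 31 of 43 lowered genes, or 72.1%, and in 45.0% of all genes in the range. Replicate 3 was the lowest in 29 of 43, or 67.4%, and in 38.5% of all genes in the range. The median SD among H2O2 libraries was 0.25 for lowered genes and 0.18 over all genes in the range, on the log2(FPKM + 1) scale. Raised genes had medians of 0.20, 0.19 and 0.16 in the 3 H2O2 libraries and showed no such split.

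Sorbitol and H2O2 libraries overlapped in a part of the members. In 39 of 55 raised genes all 3 sorbitol libraries lay above all 3 H2O2 libraries, as in 11.1% of all genes tested. The other 16 had at least 1 H2O2 library at the sorbitol level, most often replicate 2, in 10 genes. In 31 of 43 lowered genes all sorbitol libraries lay below all H2O2 libraries, as in 15.4% of all genes tested. H2O2 replicate 3 reached the sorbitol range in 7 lowered genes, replicate 1 in 3 and replicate 2 in 2. Limma called 21 raised genes higher with sorbitol than with H2O2 (3.96% of all genes) and 21 lowered genes lower (6.34% of all genes). No member (0 of 98) was called between H2O2 and control in limma, where 0.037% of all genes were called higher and 0.074% lower. An unadjusted limma p under 0.05 was found for 9 raised and 3 lowered members. The share of all genes at that looser threshold was not counted. The rule limited the H2O2 mean, so these counts are description.

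**Figure D4:**
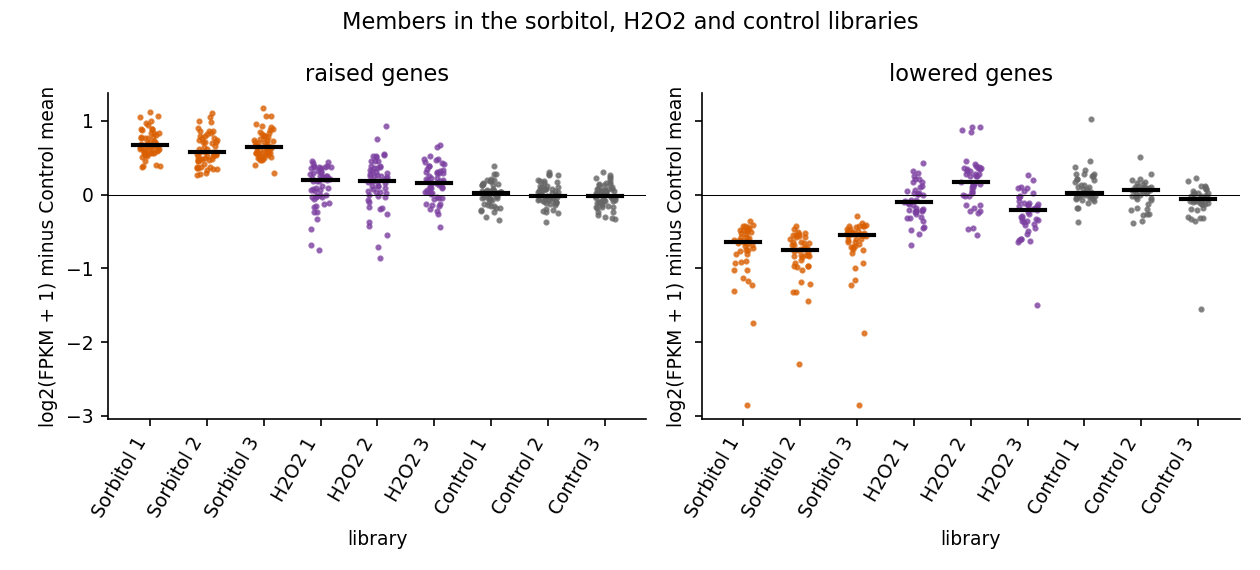
Difference from the control mean, log2(FPKM + 1), of each raised gene (left) and lowered gene (right) in the sorbitol, H2O2 and control libraries. Dots are genes and black lines are medians; among lowered genes H2O2 replicate 2 has a median of 0.17 and replicate 3 one of -0.20.

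The limit on H removed the strongest sorbitol differences. It alone kept out 25 genes that were otherwise like the lowered members, a comparison added after the data were seen. Their S ran from -5.23 to -0.55 with a median of -2.49, and 19 of them were at -1 or below. H was below 0 in 21 of the 25, with a median of -1.24 over all of them, while the median N was -0.12. On the raised side 5 genes were kept out, all with an H above 0, with a median S of 1.00, a median H of 0.81 and a median N of 0.09. Sorbitol and H2O2 share the control libraries here, so a deviation of those libraries would move S and H together. NaCl shares the same controls, but these genes had to pass the limit on N, so their N near 0 is fixed by the choice. Whether a deviation of the control libraries has a part was not tested.

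Values in libraries that had no part in the choice were read by leaving out each library in turn and applying the rule to the other 11. Each left-out library was set against libraries that did take part, which can pull its differences toward the chosen side. All genes in the range carry no such pull, so the shares set side by side are description. With sorbitol replicate 1 left out, 63 genes were chosen as raised. Their median difference from control was 0.61 in that library, against 0.63 in the sorbitol libraries that chose them, and 56, or 88.9%, lay above all NaCl and control libraries. With replicate 2 left out, 113 genes were chosen, their median in that library was 0.33, against 0.62, and 66, or 58.4%, lay clear. With replicate 3 left out, 92 genes were chosen, with medians of 0.48 and 0.59, and 66, or 71.7%, lay clear. Between 11.5% and 16.9% of all genes in the range lay clear in the same libraries. Sorbitol replicate 2 thus showed the smallest raised differences, and it also had the lowest median over all genes in the range, 0.03, against 0.11 and 0.06 in the other sorbitol libraries.

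Medians of genes chosen as lowered varied less between left-out sorbitol libraries than those of genes chosen as raised. The genes chosen without replicates 1, 2 and 3 numbered 62, 46 and 63. Their medians in the left-out library were -0.52, -0.67 and -0.49, against -0.63, -0.61 and -0.65 in the libraries that chose them. The shares that lay below all NaCl and control libraries were 74.2%, 89.1% and 76.2%, beside 6.28% to 9.77% of all genes in the range. In both directions the left-out library was on the chosen side of the control mean in most genes. The counts were 62 of 63, 98 of 113 and 83 of 92 for raised and 54 of 62, 44 of 46 and 58 of 63 for lowered. The share of all genes in the range on each side was not counted. Their medians in these libraries, 0.11, 0.03 and 0.06, were themselves on the raised side. Over the members themselves, medians in sorbitol replicates 1, 2 and 3 were 0.68, 0.57 and 0.65 for raised genes. For lowered members they were -0.64, -0.75 and -0.55, a wider range. Replicate 2 was the lowest sorbitol library in 58.1% of lowered members, and replicate 3 the highest in 55.8%. Over all genes in the range these shares were 43.8% and 31.4%.

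**Figure D5:**
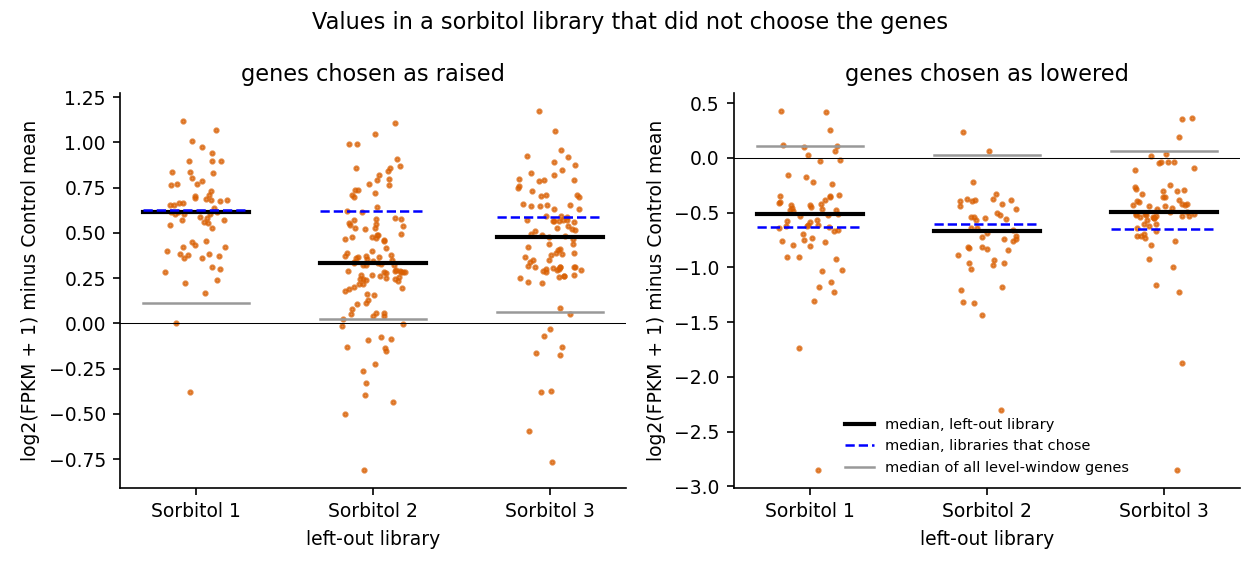
Difference from the control mean, log2(FPKM + 1), in the sorbitol library left out of the choice, for genes chosen from the other 11 libraries as raised (left) or lowered (right). Dots are genes, black lines their medians, dashed lines the medians in the libraries that chose them and grey lines the medians of all genes in the range; the widest gap between black and dashed lines is that of raised genes in replicate 2, at 0.33 against 0.62.

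NaCl libraries left out of the choice were less close to control than the rule asks of the NaCl mean. A single library varies more than a group mean, so the same limit is harder for it to meet. Among genes chosen as raised, the left-out NaCl library was within 0.3 of the control mean in 69.4%, 33.3% and 56.1% of genes for replicates 1, 2 and 3. In replicate 2 the median was 0.35, toward the sorbitol side, and 81 genes were chosen without it. Among genes chosen as lowered the shares were 56.9%, 56% and 64.1%. Of all genes in the range, 31.9% to 34.2% lay that close to control in single NaCl libraries. The left-out NaCl library was still below all sorbitol libraries in 93.9%, 64.2% and 84.8% of genes chosen as raised, beside 46.3%, 35.9% and 38.0% of all genes in the range. It was above them in 84.3%, 84% and 94.9% of those chosen as lowered, beside 29.2%, 38.8% and 38.5%. A left-out control library lay on the far side of all sorbitol libraries in 96.5% to 100% of genes chosen as raised, beside 40.1% to 43.6% of all genes in the range. The share was 89.1% to 95.7% for those chosen as lowered, beside 28.1% to 29.2%.

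Raised genes sat more often in assembly components of several genes. Of the 55, 30 did so, or 54.5%, as did 14 of the 43 lowered genes, or 32.6%, and 39.1% of all genes in the range. The 55 raised genes came from 54 components, so 2 of them shared one, and the 43 lowered genes from 43. The 2 that shared a component had S values of 0.68 and 0.66. Other tested genes of the raised members' components numbered 80, with a median S of 0.19. An S of 0.5 or more was found in 12 of them, or 15%, beside 14.2% of all genes tested. In the other direction 10, or 12.5%, had an S of -0.5 or below, beside 14.0% of all genes tested. For the lowered members 21 such genes had a median S of -0.01, and 6 of them, or 28.6%, had an S of -0.5 or below, beside 14.0% of all genes tested. Of these 21 genes 0 had an S of 0.5 or more. Genes of a component can share reads, so these values are not independent of the members.

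When the FPKM of a component were summed, the sum kept an S of at least 0.5 for 16 of the 30 raised members. The 2 members that shared a component were each counted with the same sum. The median S of the sums was 0.52, against 0.64 for the members themselves. Each sum includes the member, so its S is partly fixed by the choice. On the lowered side 10 of 14 sums were at -0.5 or below, with a median of -0.57, against -0.67 for the members. In 2 raised and 2 lowered cases the sum differed from control in the other direction. The raised members held a median of 46.8% of the control FPKM of their component and the lowered ones 84.9%. Whether reads moved between genes of a component was not tested.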

How the data were processed

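RNA from whole cells was sequenced in 12 libraries. Adapter trimming with cutadapt and abundance estimation with RSEM are named, per the submitters' processing notes, with no version. Reference and build were not given in the sources used here. FPKM is the unit read into the deposited values. No source states it, and it was inferred from decimals, the lack of negative values and library sums of 1065190 to 1133348. Absolute depth is unknown. Steps among genes at 0.2 to 1.2 FPKM put relative depth between 0.915 and 1.201, with 12.2% to 26.8% of those genes at the main step, so whole reads were not recovered. Libraries listed 37005 to 42727 genes above 0, and at most 3.64% of genes had equal values in any pair of libraries.

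Groups and replicate numbers came from the sample titles. The 27038 genes that reached 1 FPKM in 3 or more libraries were fitted as log2(FPKM + 1) in limma 3.58.1 (R 4.3.3, mean-variance trend, all 12 libraries, 5 comparisons), with Benjamini-Hochberg adjustment and a threshold of 0.05. In simulated data, the fit and the rule were set to find planted differences larger than the S of most members. These runs check the code and do not show how well genes like the members are found. The members, the rule and the comparisons were chosen with earlier results of these data known. IDs are printed for the 2 members of each direction with the largest S; others are given by their rank in S (3 to 10) or by control level (the top 3), and near the limits. Same-numbered libraries did not deviate together, so they were not treated as pairs. Gene lists were not run, for lack of names. Python 3.11.15, pandas 2.3.3, numpy 2.4.6 and matplotlib 3.10.9 were used.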

Additional observations from a re-analysis of the deposited data

How the results depend on the processing

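The direction of S for the 4 genes printed with their IDs reversed in 0 of the alternatives, and the value that moved was that of c35568_g1, at -5.05 with a pseudocount of 0.1. The number of members depended on scaling and limits: raised genes numbered 89 with libraries scaled to equal sums (42 of the 55 among them), against 46 under median-ratio scaling (31 of the 55), and lowered genes 30 and 62 (28 and 34 of the 43). The median S of all genes tested was 0.07 as deposited, 0.12 with equal sums and 0 under median-ratio scaling. An S of at least 1 in size left 0 raised and 5 lowered genes, an N of at most 0.2 left 33 raised, components with 1 gene left 25 raised, all by construction, and no limit on H, added after the data were seen, gave 68 lowered. Leaving out each library gave 48 to 113 raised genes (113 without sorbitol replicate 2, 92 without sorbitol replicate 3) and 39 to 63 lowered ones. With a sorbitol, NaCl or control library left out, the demand that libraries did not overlap was looser.

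Members called in limma numbered 76 between sorbitol and control, 67 between sorbitol and NaCl and 42 between sorbitol and H2O2. Of all 27038 genes tested, 3562, 5596 and 2786 were called. At an adjusted p of 0.01 the members called were 35, 33 and 19, since fewer genes can pass, and all genes called fell to 1646, 3285 and 1353. Between sorbitol and H2O2 the members called were 25 with no filter and 16 with only the groups compared. All genes called there were 1742 of 77390 and 1502 of 27038 tested, and the cause was not tested. Leaving out each library gave 53 to 84, 41 to 79 and 28 to 46 members. All genes called then numbered 2220 to 4206, 4180 to 6116 and 1769 to 2764, of 25909 to 26351 tested. The 41 members, between sorbitol and NaCl without sorbitol replicate 1, stood beside 4180 of all genes. Same-numbered libraries had correlations of -0.083 to 0.047 in their deviations (18 pairs), and the own number gave the best correlation for 3 of 12 libraries. A replicate block in the fit gave 68, 58 and 37 members, beside 2859, 4973 and 2270 of all genes. The reads behind low genes are unknown, which limits their precision.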
